A study of Homo sapiens with 9 samples.

Results

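The genes described here are 8 members of the insulin-like growth factor (IGF) system, 5 binding proteins (IGFBP2, IGFBP3, IGFBP4, IGFBP6 and IGFBP7) and 3 receptors (IGF1R, IGF2R and INSR), out of 18064 gene rows in the table. They were found by matching the table's numeric gene identifiers to symbols, and all 8 had a row. In the order given, the identifiers are 3485, 3486, 3487, 3489, 3490, 3480, 3482 and 3643. They were chosen by family with their measured FPKM in all 3 groups already known, so levels and differences of these 8 are given as a description, with no test. Of the 8, 7 passed the filter used for testing, at least 1 FPKM (fragments scaled to transcript length and library total) in at least 3 libraries, and IGFBP2 did not.

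RNA sequencing covered 9 libraries of human cells in 3 groups of 3. By their titles, the treatment protocol and the design text, the cells were MDA-MB-231/PTX. These derive from triple-negative breast cancer (MDA-MB-231) and resist paclitaxel, and they grew in medium with fetal bovine serum. One group carried a control siRNA (si-NC), and si1-BCLIN25 and si2-BCLIN25 each carried an siRNA meant to deplete an RNA called BCLIN25. No dose or time after transfection is given. The source name and sample characteristics instead give PC9/GR, gefitinib-resistant cells of lung adenocarcinoma, and HUMT as the target. The labels therefore conflict on the cells and on the RNA targeted. The column names of the 3 si-NC libraries hold a tag, X812, that the 6 siRNA columns lack, and whether it marks a batch is not stated. If it does, batch and group cannot be told apart. BCLIN25 was not analysed here, so the knockdown was not checked. The labels do not say that replicates were grown separately, so the p-values below reflect only the spread among these libraries, which may be technical.

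FPKM summed to 394081 to 419025 in each library, and read depth is unknown. Of 10 genes typical of MDA-MB-231, 8 reached 1 FPKM in every library, and the exceptions were SPARC and ZEB1. In sum the si-NC libraries held 940 to 946 FPKM of these 10 genes, the si1-BCLIN25 libraries 529 to 545 and the si2-BCLIN25 libraries 571 to 587. Without CAV1, which was higher in the siRNA libraries, the sums were 651 to 668, 170.2 to 173 and 193 to 199 FPKM, with 7 of the 10 genes below the controls in every siRNA library. Among these, VIM averaged 80.9, 14.2 and 22.4 FPKM and MSN 72.9, 3.98 and 4.15 FPKM. Of all genes past the filter, 25.7% lay below all controls with si1-BCLIN25 and 26.6% with si2-BCLIN25, while 39.0% and 40.5% lay above. All 10 epithelial markers reached 1 FPKM in every library, which goes against the mesenchymal profile that MDA-MB-231 is known for. In the siRNA libraries 5 of the 10 were above all controls and 5 below. Their sum was 1745 to 1831 FPKM in si-NC and 2452 to 2690 in the siRNA libraries, but without KRT19, which averaged 688, 1665 and 1555 FPKM, it was 1091 to 1122 in si-NC, 906 to 954 with si1-BCLIN25 and 932 to 948 with si2-BCLIN25. Of 4 lung markers measured, SFTPB was the highest, at 0.75 to 1.22 FPKM in si-NC, 1.66 to 1.96 with si1-BCLIN25 and 1.33 to 1.70 with si2-BCLIN25, while NKX2-1 and NAPSA did not exceed 0.78 and 0.34 FPKM. The data therefore do not settle the line, and the groups are called by their siRNA labels.

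IGF1 and IGF2 are secreted growth factors that act through IGF1R, a receptor tyrosine kinase that feeds the PI3K and MAPK pathways. INSR, the insulin receptor, is its close relative and can pair with it, while IGF2R, the cation-independent mannose 6-phosphate receptor, carries IGF2 and lysosomal enzymes inward and has no kinase. The IGF binding proteins hold IGFs in the extracellular space and can block or prolong their action, and proteases release the ligand by cutting them. In breast cancer cells IGFBP3 is also known for effects on growth that do not need IGF binding.

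IGFBP3, the main carrier of IGFs in blood, stood at 27.7, 27.3 and 26.5 FPKM in the 3 si-NC libraries. It stood at 423, 419.5 and 441 FPKM with si1-BCLIN25 and at 384.5, 383 and 388 FPKM with si2-BCLIN25. Every siRNA library was far above every control, and the si1-BCLIN25 libraries were all above the si2-BCLIN25 libraries. The group means were 27.2 ± 0.59, 428 ± 11.3 and 385 ± 2.72 FPKM (SD, n = 3 each), 15.8 and 14.2 times the control level. On the log2(FPKM + 1) scale the differences from si-NC were 3.93 and 3.78 (SE 0.034 each). The gene ranked between 2949 and 3089 by FPKM among all rows in si-NC, between 125 and 129 with si1-BCLIN25, and between 136 and 143 with si2-BCLIN25. In these bulk libraries, more cells making a transcript and more transcript per cell cannot be told apart.

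IGFBP4, an inhibitory binding protein cut by the protease PAPPA, went the other way. It stood at 95.9, 97.7 and 94.2 FPKM in si-NC, at 54.0, 56.2 and 53.1 with si1-BCLIN25, and at 54.7, 54.7 and 54.6 with si2-BCLIN25. The siRNA libraries were all lower than the controls, and the 2 siRNA groups overlapped. The means were 96.0 ± 1.75, 54.4 ± 1.63 and 54.7 ± 0.042 FPKM (SD, n = 3 each), with log2 differences of -0.81 and -0.80 from si-NC (SE 0.034 each).

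IGFBP6, which prefers IGF2 over IGF1, stood at 12.7, 14.9 and 15.3 FPKM in si-NC. With si1-BCLIN25 it stood at 31.0, 31.8 and 29.3 FPKM, and with si2-BCLIN25 at 36.0, 34.8 and 36.2 FPKM. The 3 groups did not overlap, and si2-BCLIN25 was the highest. The means were 14.3 ± 1.41, 30.7 ± 1.32 and 35.7 ± 0.76 FPKM (SD, n = 3 each), and the log2 differences were 1.06 and 1.27 (SE 0.061 each). Without si-NC replicate 1, the lowest control, the differences were 0.98 and 1.19.

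IGFBP7, a low-affinity IGF binder of the extracellular matrix, stood at 33.7, 37.4 and 38.5 FPKM in si-NC. It stood at 24.0, 21.3 and 21.8 FPKM with si1-BCLIN25 and at 26.4, 27.1 and 26.1 FPKM with si2-BCLIN25. Again no groups overlapped, with si1-BCLIN25 the lowest. The means were 36.5 ± 2.49, 22.4 ± 1.45 and 26.6 ± 0.52 FPKM (SD, n = 3 each), and the log2 differences were -0.68 and -0.44 (SE 0.055 each). The protein-coding gene POLR2B overlaps IGFBP7 in the RefSeq annotation and lay between 22.8 and 25.3 FPKM in the 9 libraries. Whether the authors counted reads by strand is not stated, so reads of the overlap could be assigned to either gene. The noncoding RNAs IGFBP7-AS1, IRAIN and AIRN, which overlap IGFBP7, IGF1R and IGF2R, were not analysed here.

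IGFBP2 was nearly silent, at 0.17 FPKM or less in all 9 libraries, with overlapping groups. Of the binding proteins outside the 8 genes, IGFBP1 averaged 0.25 FPKM in each group and did not exceed 0.39 FPKM in any library. IGFBP5 lay between 0.19 and 0.22 FPKM in si-NC, at 0.01 FPKM or less with si1-BCLIN25, and was listed at 0 in all si2-BCLIN25 libraries.

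**Figure D1:**
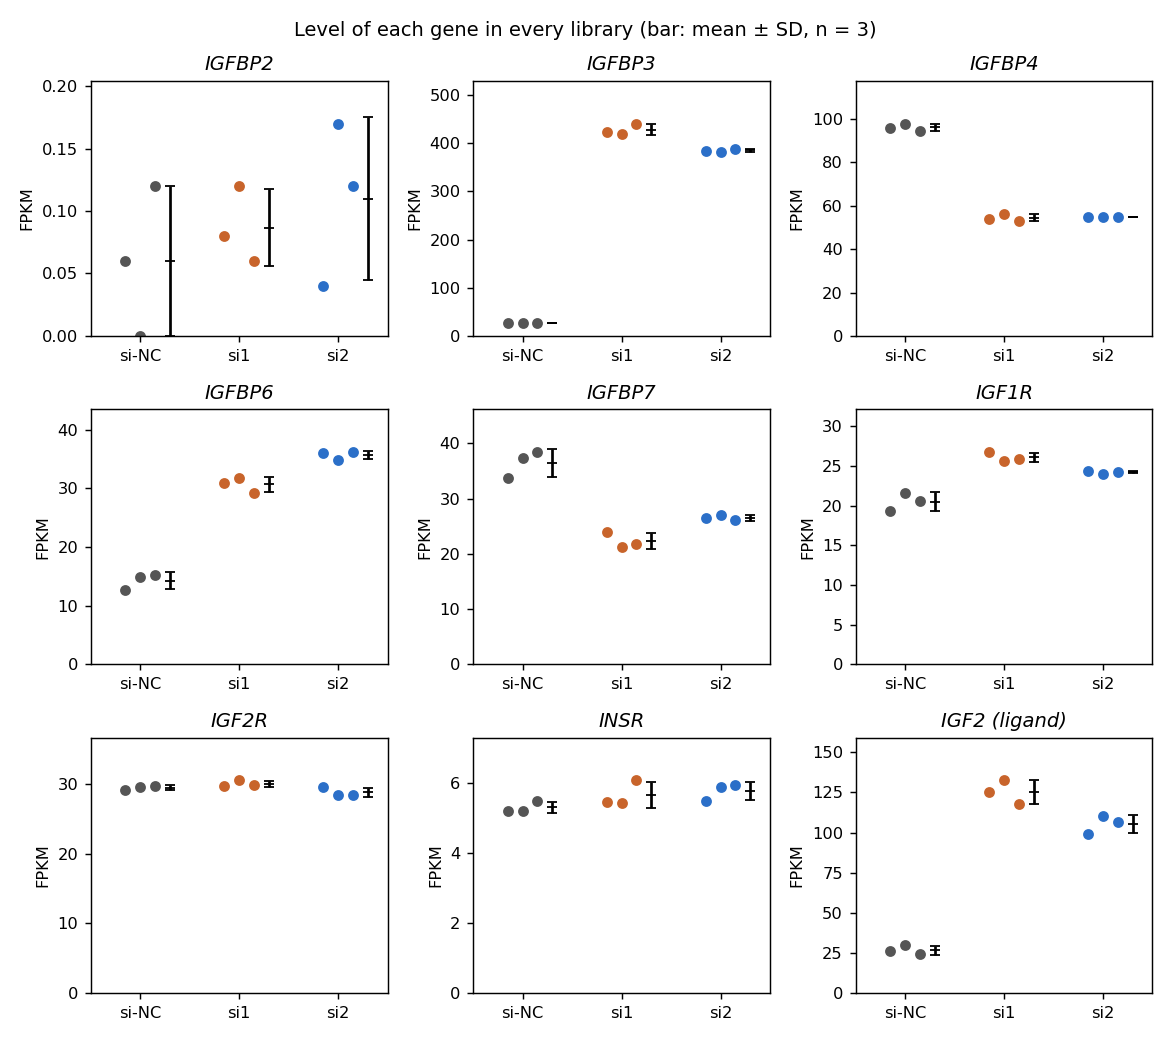
FPKM (vertical axes, linear, from 0) of the 8 genes and of the ligand IGF2 in each library, with the mean ± SD of each group (n = 3). IGFBP3 goes from 27.2 to 428 and 385 FPKM and IGFBP4 from 96.0 to 54.4 and 54.7 FPKM, while IGF2R stays between 28.4 and 30.5 FPKM.

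The promoters of the binding proteins that differed most are shown because their genes differed from si-NC in opposite directions. Each window runs from 250 bases before to 50 bases after the annotated start, 5′ to 3′ on the gene's strand, from RefSeq on GRCh38.p14. It is chr7:45921223-45921522 on the minus strand for IGFBP3, chr12:53097417-53097716 on the plus strand for IGFBP6 and chr17:40443200-40443499 on the plus strand for IGFBP4. Capitals mark the GC box GGGCGG, read as CCGCCC on the opposite strand, and the TATA box TATAAA. Only exact matches were sought, so variants of these motifs stay in lower case and are not counted.
IGFBP3: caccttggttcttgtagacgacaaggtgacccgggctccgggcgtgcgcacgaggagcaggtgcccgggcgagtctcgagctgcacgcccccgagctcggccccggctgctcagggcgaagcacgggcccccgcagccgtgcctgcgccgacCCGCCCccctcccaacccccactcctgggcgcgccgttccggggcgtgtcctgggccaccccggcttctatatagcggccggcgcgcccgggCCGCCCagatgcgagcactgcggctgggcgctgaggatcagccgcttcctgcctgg
IGFBP6: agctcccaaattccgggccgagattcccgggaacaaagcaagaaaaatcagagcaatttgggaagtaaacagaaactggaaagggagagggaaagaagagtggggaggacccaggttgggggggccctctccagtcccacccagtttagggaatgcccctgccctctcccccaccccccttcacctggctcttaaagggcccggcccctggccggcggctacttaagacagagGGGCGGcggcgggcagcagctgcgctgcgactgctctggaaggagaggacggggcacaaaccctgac
IGFBP4: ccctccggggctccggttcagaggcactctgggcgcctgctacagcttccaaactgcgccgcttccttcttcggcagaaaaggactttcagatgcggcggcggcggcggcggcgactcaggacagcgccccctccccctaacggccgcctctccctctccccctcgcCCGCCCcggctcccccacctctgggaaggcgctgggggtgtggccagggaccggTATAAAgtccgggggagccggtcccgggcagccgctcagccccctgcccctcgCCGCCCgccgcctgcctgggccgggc
IGFBP3 held 2 GC boxes on the opposite strand, starting 98 and 6 bases before the start. IGFBP6 held 1, on its own strand, starting 17 bases before. IGFBP4 held 2 on the opposite strand, 1 starting 83 bases before the start and 1 at base 25 of the transcript, together with TATAAA starting 29 bases before. GGGCGG is common, present on at least 1 strand in 45% of the 35116 promoter windows of the table, and TATAAA is present in 11.5%. The windows of IGFBP3 and IGFBP4 were 74.7% and 74% G or C with 36 and 30 CpG dinucleotides, and that of IGFBP6 was 61.7% G or C with 12, against medians of 58.7% and 14 over all windows. The AP-1 motif TGANTCA, searched on both strands and found in 7.71% of windows, had no match in any window of the 7 genes with an entry. The E-box CACGTG, in 7.26% of windows, matched only in IGF2R, at 3 places beside 6 GC boxes. IGF1R held 2 GC boxes and INSR held 4, of which 3 overlap end to end.

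IGF1R, the receptor through which both IGFs signal, stood at 19.3, 21.6 and 20.6 FPKM in si-NC. It stood at 26.7, 25.6 and 25.9 FPKM with si1-BCLIN25 and at 24.4, 24.0 and 24.2 FPKM with si2-BCLIN25. All siRNA libraries were above all controls, by much less than for IGFBP3 and IGFBP6, and si1-BCLIN25 was the higher of the siRNA groups. The means were 20.5 ± 1.18, 26.1 ± 0.60 and 24.2 ± 0.17 FPKM (SD, n = 3 each), and the log2 differences were 0.33 and 0.23 (SE 0.044 each).

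IGF2R, the clearance receptor of IGF2, had the narrowest range of the 7 genes relative to its level. It stood at 29.1, 29.6 and 29.7 FPKM in si-NC, at 29.7, 30.5 and 29.9 with si1-BCLIN25, and at 29.6, 28.4 and 28.4 with si2-BCLIN25. Each siRNA group overlapped the controls, while the siRNA groups did not overlap each other. Its log2 differences from si-NC were 0.026 and -0.033 (SE 0.035 each), and the former was -0.022 when each library was centred on its median. INSR stood at 5.20, 5.22 and 5.50 FPKM in si-NC, at 5.45, 5.44 and 6.08 with si1-BCLIN25, and at 5.49, 5.88 and 5.96 with si2-BCLIN25. The 3 groups overlapped, and the log2 differences of 0.077 and 0.10 (SE 0.057 each) became -0.041 and -0.028 after quantile normalization.

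The ratio of IGF1R to INSR transcripts, both per length, was 3.87 ± 0.24 in si-NC, 4.62 ± 0.34 with si1-BCLIN25 and 4.20 ± 0.21 with si2-BCLIN25 (SD, n = 3 each). The si1-BCLIN25 libraries lay above the controls and the si2-BCLIN25 libraries overlapped them. The ratio of IGF1R to IGF2R was 0.70 ± 0.035, 0.868 ± 0.031 and 0.841 ± 0.016 (SD, n = 3 each), with both siRNA groups above the controls.

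In each comparison with si-NC, 5 of the 7 genes did not overlap between the groups, with IGFBP3, IGFBP6 and IGF1R higher and IGFBP4 and IGFBP7 lower. Among all 12317 genes that passed the filter, 64.7% did not overlap for si1-BCLIN25 (39.0% higher, 25.7% lower) and 67.1% for si2-BCLIN25 (40.5% higher, 26.6% lower), so shares of this size were the rule in these libraries. The balance of directions over all genes depends on scaling: 4731 genes were called higher and 3035 lower by limma with si1-BCLIN25, but 3797 and 3775 after quantile normalization, and 4756 and 3003 with si2-BCLIN25, but 3814 and 3707. Both comparisons use the same si-NC libraries. Between the siRNA groups 5 of the 7 also did not overlap, against 25.9% of all genes (14.1% higher, 11.7% lower with si2-BCLIN25). IGFBP6 and IGFBP7 were higher with si2-BCLIN25, by 0.21 (SE 0.061) and 0.24 (SE 0.055) on the log2 scale, and IGFBP3, IGF1R and IGF2R were lower, by amounts of -0.15 (SE 0.034), -0.10 (SE 0.044) and -0.059 (SE 0.035). For IGFBP3 and IGFBP6 these are small beside the distances from si-NC. They are less so for IGFBP7, at -0.68 and -0.44 from si-NC, and for IGF1R, at 0.33 and 0.23. For IGF2R the difference between the siRNA groups is larger than either distance from si-NC, 0.026 and -0.033. The median log2 difference of the 7 genes was 0.077 for si1-BCLIN25 and 0.10 for si2-BCLIN25, where all genes had medians of 0.060 and 0.063.

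By level, the order in si-NC was IGFBP4, IGFBP7, IGF2R, IGFBP3, IGF1R, IGFBP6, INSR and IGFBP2, with no overlap between neighbours. With si1-BCLIN25 it was IGFBP3, IGFBP4, IGFBP6, IGF2R, IGF1R, IGFBP7, INSR and IGFBP2, where only IGFBP6 and IGF2R overlapped. With si2-BCLIN25 it was IGFBP3, IGFBP4, IGFBP6, IGF2R, IGFBP7, IGF1R, INSR and IGFBP2, with no overlap between neighbours.

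Added over IGFBP1 to IGFBP7, binding protein transcripts came to 174 ± 3.78 FPKM in si-NC, 536 ± 8.31 with si1-BCLIN25 and 502 ± 2.78 with si2-BCLIN25 (SD, n = 3 each). IGFBP3 made up 15.6% ± 0.59 of that sum in si-NC, 79.9% ± 0.87 with si1-BCLIN25 and 76.7% ± 0.12 with si2-BCLIN25. IGFBP4 made up 55.0% ± 1.27, 10.2% ± 0.45 and 10.9% ± 0.067. The leading binding protein transcript was thus IGFBP4 in every control library and IGFBP3 in every siRNA library. IGFBP7 went from 20.9% ± 1.08 to 4.18% ± 0.29 and 5.29% ± 0.13. IGFBP6, although its level was higher, went from 8.18% ± 0.67 of the sum to 5.73% ± 0.33 and 7.10% ± 0.12. Without IGFBP3 the sum was lower in the siRNA libraries, at 147 ± 4.10, 108 ± 3.05 and 117 ± 0.11 FPKM.

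**Figure D2:**
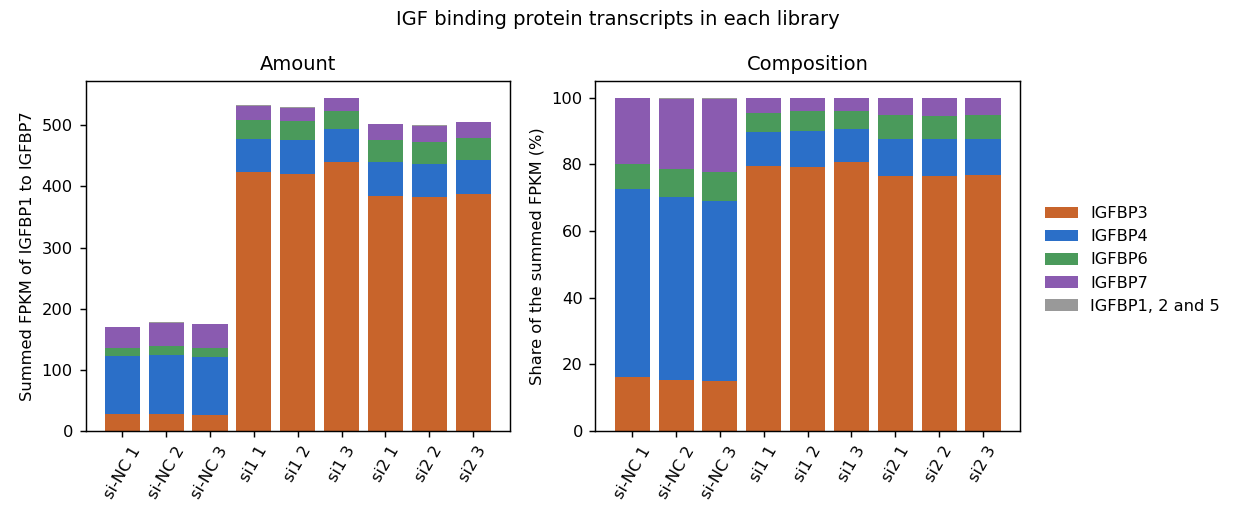
Summed FPKM of IGFBP1 to IGFBP7 in each library (left) and the share of each gene in that sum (right, percent), stacked by gene. IGFBP4 holds 53.8% to 56.3% in the si-NC libraries, and IGFBP3 holds 76.6% to 80.9% in the siRNA libraries.

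Binding proteins of this family are also made by stromal cells. Of 8 fibroblast markers, 2 reached 1 FPKM in all si-NC libraries and 3 in all libraries of each siRNA group, with summed levels of 15.2 to 16.5 FPKM in si-NC, 27.8 to 29.6 with si1-BCLIN25 and 26.8 to 28.5 with si2-BCLIN25. Every siRNA library was above the controls for 5 of the 8, COL1A1, LUM, DCN, PDGFRB and THY1, and below them for none. Among all genes past the filter, 39.0% lay above all controls with si1-BCLIN25 and 40.5% with si2-BCLIN25. DCN and PDGFRB did not exceed 0.24 and 0.47 FPKM in any library. In si-NC, si1-BCLIN25 and si2-BCLIN25, LUM averaged 0.50, 4.97 and 4.01 FPKM, COL1A1 3.75, 9.32 and 8.67, and THY1 11.3, 13.6 and 14.7. COL1A2, COL3A1 and POSTN were below 0.1 FPKM in all 9 libraries. The part of these transcripts in the differences above was not tested. Of the 4 endothelial markers measured, none reached 1 FPKM in all libraries of any group, and they summed to at most 0.60 FPKM. The 5 blood cell markers measured summed to 56.2 to 61.0 FPKM in si-NC and to 40.5 to 46.0 FPKM in the siRNA libraries, most of it LAPTM5.

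The genes around each locus were examined as well, as the median log2 difference of up to 25 tested genes on each side in RefSeq order. Around IGFBP3 on chromosome 7 it was 0.022 for si1-BCLIN25 and 0.034 for si2-BCLIN25. The adjacent tested genes were ADCY1, an adenylyl cyclase, at -0.87 and -0.88, and TNS3, a focal adhesion protein, at 0.45 and 0.43. The difference of IGFBP3 was therefore not shared by its neighbours. The medians were 0.18 and 0.14 around IGFBP4 on chromosome 17, and 0.19 and 0.21 around IGFBP6 on chromosome 12, where all genes had 0.060 and 0.063. Both windows hold keratin genes, with differences of both signs. Near IGFBP4, KRT23 was the only keratin gene below the controls, at -0.72 and -0.70. The others were higher, from KRT10 at 0.10 and 0.095 to KRT14 at 4.03 and 3.75. Among them, KRT13 differed by 3.18 and 2.78, KRT17 by 3.10 and 2.90, and KRT16 by 2.93 and 2.75. Near IGFBP6, KRT5 differed by 2.72 and 2.60, KRT6A by 0.86 and 0.84, and KRT6B by 0.49 and 0.31. There KRT18 was at -0.77 and -0.75, KRT80 at -0.53 and -0.16, KRT8 at -0.10 and -0.14, and KRT7 at -0.081 and -0.027. TNS4, which adjoins IGFBP4, differed by -1.29 and -1.34. Around IGFBP7 the medians were 0.022 and 0.040, around IGF1R 0.14 and 0.17, around IGF2R 0.014 and 0.017, and around INSR 0.087 and -0.0010. Around the nearly silent IGFBP2 they were 0.22 and 0.23.

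**Figure D3:**
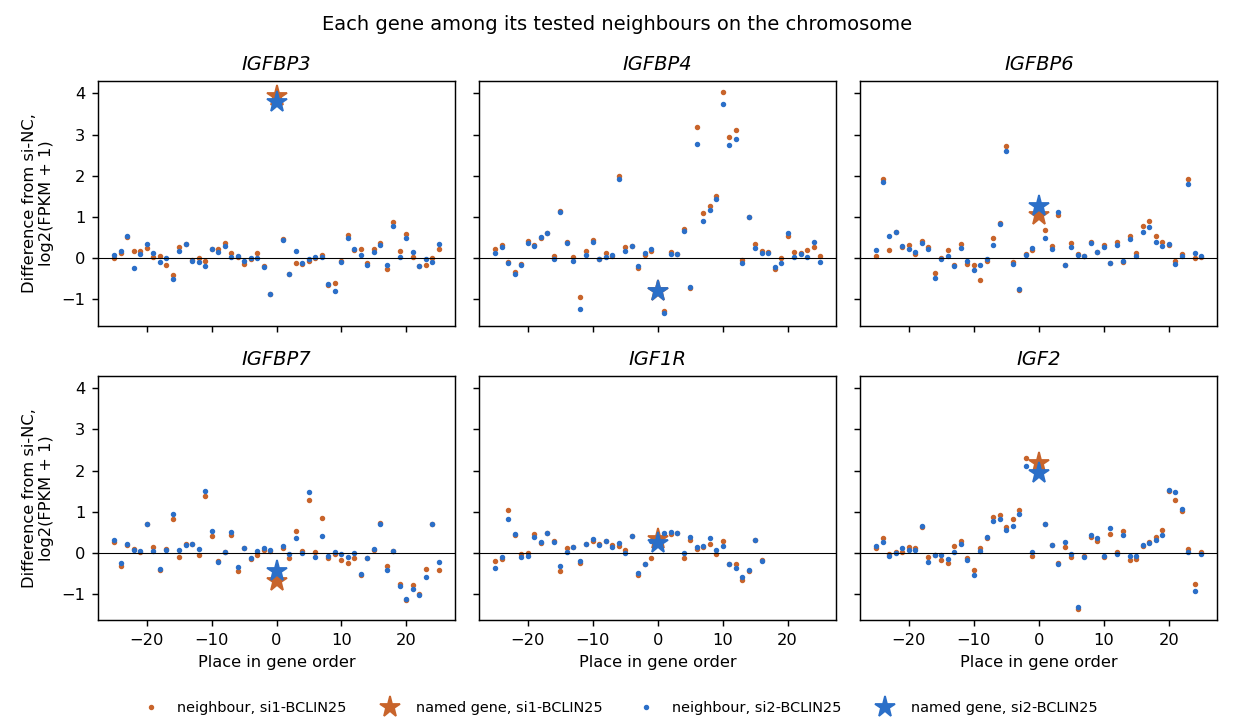
Log2(FPKM + 1) difference from si-NC (vertical axis) of 5 of the 8 genes and of IGF2 (stars) and of up to 25 tested genes on each side (points), by place in gene order along the chromosome. IGFBP3 stands at 3.93 and 3.78 among neighbours between -0.88 and 0.87, while the windows of IGFBP4 and IGFBP6 hold keratin genes with differences from -0.77 (KRT18) to 4.03 (KRT14) for si1-BCLIN25.

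For the genes with the largest positive and negative difference, the most closely correlated transcripts were sought among 6158 genes at or above the median level. The measure was Pearson r of log2(FPKM + 1) over the 9 libraries, which compares patterns and not levels or sizes of difference. For IGFBP3 these were the basal keratin KRT5 (r = 0.9997), MPPED2 (r = 0.9996) and the small heat shock protein HSPB1 (r = 0.9995). KRT5 stood at 199, 1318 and 1210 FPKM in si-NC, si1-BCLIN25 and si2-BCLIN25. For IGFBP4 they were the organic anion transporter SLCO4A1 (r = 0.9991), CMTM7 (r = 0.9987) and the focal adhesion protein PXN (r = 0.9984). SLCO4A1 stood at 67.8, 9.38 and 9.66 FPKM. For both genes the libraries fall into a control level and an siRNA level. At a looser cutoff, 3.28% of the genes compared reached r = 0.99 with IGFBP3 and 2.48% with IGFBP4.

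Genes of the IGF pathway outside the 8 were tested with limma on log2(FPKM + 1) over all 9 libraries, with Benjamini-Hochberg adjustment over all 12317 genes and a threshold of 0.05. Genes past it are described as having risen or fallen, and every adjusted p below is from this fit unless another is named. Of 105 genes in 10 lists, 89 were tested. In si1-BCLIN25 33 rose and 27 fell, 60 in all or 67.4%, where 63.1% of all genes were called. In si2-BCLIN25 32 rose and 23 fell, 55 in all or 61.8%, where 63.0% of all genes were called. These shares were close to those of all genes. The lists were chosen with earlier results of these data known. The shares and the adjusted p below are therefore not independent of that choice, and they describe the genes listed. The median log2 differences of the 89 genes were 0.036 and 0.031, and the values of single genes follow. Of the 89, 5 passed the filter through one side only: ESM1, PAPPA and GRB14 reached 1 FPKM only in si-NC libraries, and MMP7 and PDK4 only in siRNA libraries. Without these 5, 55 of 84 were called with si1-BCLIN25 (31 higher, 24 lower) and 50 of 84 with si2-BCLIN25 (30 higher, 20 lower). For them, the adjusted p given is that of the fit with no filter, where they were also called.

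IGF2, the ligand of IGF1R, of IGF2R and of one form of INSR, was the most abundant of the 5 ligands listed. It stood at 25.9, 29.8 and 24.4 FPKM in si-NC, at 125, 133 and 118 with si1-BCLIN25, and at 99.2, 110.2 and 107 with si2-BCLIN25. Every siRNA library was above every control. The rise of IGF2 was 2.19 and 1.94 in log2 units (SE 0.068 each; limma adjusted p = 4.66e-11 and 1.50e-10), and between the siRNA groups it was not called (log2 difference -0.25, SE 0.068, limma adjusted p = 0.106). INS-IGF2, a read-through gene that overlaps it, did not exceed 0.33 FPKM. Relative to the summed binding protein transcripts, IGF2 came to 15.3% ± 1.44 in si-NC, 23.4% ± 1.70 with si1-BCLIN25 and 21.0% ± 1.15 with si2-BCLIN25 (SD, n = 3 each). The genes around IGF2 had medians of 0.14 and 0.15, with the muscle gene TNNT3 at 2.30 and 2.11 and PHLDA2, an imprinted brake on placental growth, at -1.37 and -1.30. IGF1 stayed between 0.18 and 0.35 FPKM and INS at 0.12 FPKM or less. RLN2, a relaxin, averaged 2.47, 2.77 and 2.97 FPKM and was called in neither siRNA group (log2 difference 0.12 and 0.19, limma adjusted p = 0.401 and 0.199).

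The IGF2 mRNA-binding proteins, which control the stability and translation of IGF2 and other mRNAs, moved apart. IGF2BP3 rose from 15.1 ± 0.23 FPKM to 22.2 ± 0.93 and 22.9 ± 1.05 (log2 difference 0.52 and 0.57, SE 0.045, limma adjusted p = 6.85e-07 and 3.44e-07). IGF2BP2 fell from 25.9 ± 0.84 FPKM to 21.7 ± 0.55 and 22.2 ± 0.021 (log2 difference -0.25 and -0.21, SE 0.038, limma adjusted p = 0.000125 and 0.000401). IGF2BP1 did not exceed 0.06 FPKM.

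Among other proteins with an IGFBP domain, 1 of 8 tested genes rose and 5 fell in each siRNA group. The share called was 75% in each, beside 63.1% and 63.0% of all genes. Of those that fell, ESM1 passed the filter only through the si-NC libraries. In so short a list the count is given as a description. ESM1, a proteoglycan of activated endothelium, fell from 10.7 ± 1.07 FPKM to 0.30 ± 0.12 and 0.32 ± 0.15 (log2 difference -3.17 and -3.15, SE 0.10, limma adjusted p with no filter = 3.30e-08 and 3.84e-08). CCN1 and CCN2, matricellular proteins known as targets of YAP, fell together. CCN1 went from 42.2 ± 1.00 FPKM to 12.2 ± 0.72 and 13.5 ± 0.61, and CCN2 went from 7.94 ± 0.36 FPKM to 1.08 ± 0.22 and 1.32 ± 0.28. Their limma adjusted p was at most 3.22e-09. CRIM1, a membrane protein that binds bone morphogenetic proteins, fell from 22.9 ± 0.80 to 7.42 ± 0.52 and 8.71 ± 0.35 FPKM, and IGFBPL1 fell from 6.30 ± 0.18 to 4.63 ± 0.50 and 4.61 ± 0.17 FPKM. The secreted serine protease HTRA1 was the one that rose, from 34.3 ± 2.47 to 45.3 ± 0.54 and 43.3 ± 3.09 FPKM (limma adjusted p = 6.24e-05 and 0.000298). CCN3, at 4.16, 4.71 and 4.66 FPKM, and KAZALD1, at 0.95, 0.97 and 1.07 FPKM, were not called.

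Of 7 tested proteases of the binding proteins and their inhibitors, 3 rose and 4 fell with si1-BCLIN25, and 3 rose and 3 fell with si2-BCLIN25. The shares called were 100% and 85.7%, beside 63.1% and 63.0% of all genes. Of these genes, PAPPA passed the filter only through the si-NC libraries and MMP7 only through the siRNA libraries. In so short a list the count is given as a description. PAPPA, the secreted protease that cuts IGFBP4, fell from 1.66 ± 0.025 to 0.28 ± 0.015 and 0.26 ± 0.049 FPKM (log2 difference -1.05 and -1.07, SE 0.075, limma adjusted p with no filter = 5.02e-08 and 4.75e-08). Its inhibitors fell as well: STC2 from 45.6 ± 2.69 to 16.1 ± 0.14 and 18.3 ± 0.094 FPKM, and STC1 from 8.24 ± 0.43 to 5.90 ± 0.075 and 5.66 ± 0.15 FPKM (limma adjusted p at most 1.41e-05). MMP7, a matrix metalloprotease able to cut IGFBP3, rose from 0.58 ± 0.21 to 5.46 ± 0.13 and 4.34 ± 0.73 FPKM (log2 difference 2.04 and 1.76, SE 0.11, limma adjusted p with no filter = 9.44e-07 and 2.70e-06). The lysosomal protease CTSD, a cargo of IGF2R, rose from 169 ± 11.1 to 320.1 ± 10.8 and 302 ± 8.17 FPKM (log2 difference 0.92 and 0.83, SE 0.048). ADAM28 rose from 1.84 ± 0.31 to 2.65 ± 0.28 and 2.94 ± 0.076 FPKM, but after quantile normalization it was not called in si1-BCLIN25 (limma adjusted p = 0.112).

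In the mannose 6-phosphate sorting list, which holds the partners of IGF2R, 3 of 10 genes rose in each siRNA group. By limma 1 fell with si1-BCLIN25 and 0 with si2-BCLIN25, where 2 were lower at an unadjusted p under 0.05. That made 40% and 30% called, beside 63.1% and 63.0% of all genes. GNPTG, a subunit of the enzyme that makes the sorting tag, rose from 13.3 ± 2.31 to 18.5 ± 0.29 and 17.7 ± 1.81 FPKM (limma adjusted p = 0.00122 and 0.00351). The Golgi adaptor GGA1 rose from 7.92 ± 0.28 to 9.87 ± 0.35 and 9.86 ± 0.16 FPKM (limma adjusted p = 0.000169 and 0.000181). The retromer subunit VPS29 rose from 47.5 ± 3.49 to 53.5 ± 3.38 and 62.0 ± 2.84 FPKM (limma adjusted p = 0.0246 and 0.000121). For si1-BCLIN25 the VPS29 call was lost without si-NC replicate 1 (limma adjusted p = 0.103), without si1-BCLIN25 replicate 1 (limma adjusted p = 0.109), with median centring (limma adjusted p = 0.0840) and with no filter (limma adjusted p = 0.0517).

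All 4 tested genes among the receptors and partners of IGFBP3 rose in both siRNA groups. LRP1, an endocytic receptor that binds IGFBP3, rose from 2.86 ± 0.34 to 8.68 ± 0.41 and 8.19 ± 0.57 FPKM (log2 difference 1.33 and 1.25, SE 0.072, limma adjusted p = 8.26e-09 and 1.53e-08). RXRA, a nuclear receptor that binds IGFBP3, rose from 33.5 ± 1.66 to 56.5 ± 1.16 and 55.2 ± 0.90 FPKM (log2 difference 0.74 and 0.70, SE 0.040). TMEM219, a cell surface receptor for IGFBP3, rose from 17.7 ± 0.81 to 26.0 ± 1.41 and 25.6 ± 2.13 FPKM (log2 difference 0.53 and 0.51, SE 0.060). The fourth, CAV1, a caveolar coat protein that is also on the list of MDA-MB-231 genes, rose from 282 ± 11.4 to 366 ± 7.67 and 383 ± 4.98 FPKM. In a list of 4 genes, and with 63.1% and 63.0% of all genes called, this count is given as a description.

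**Figure D4:**
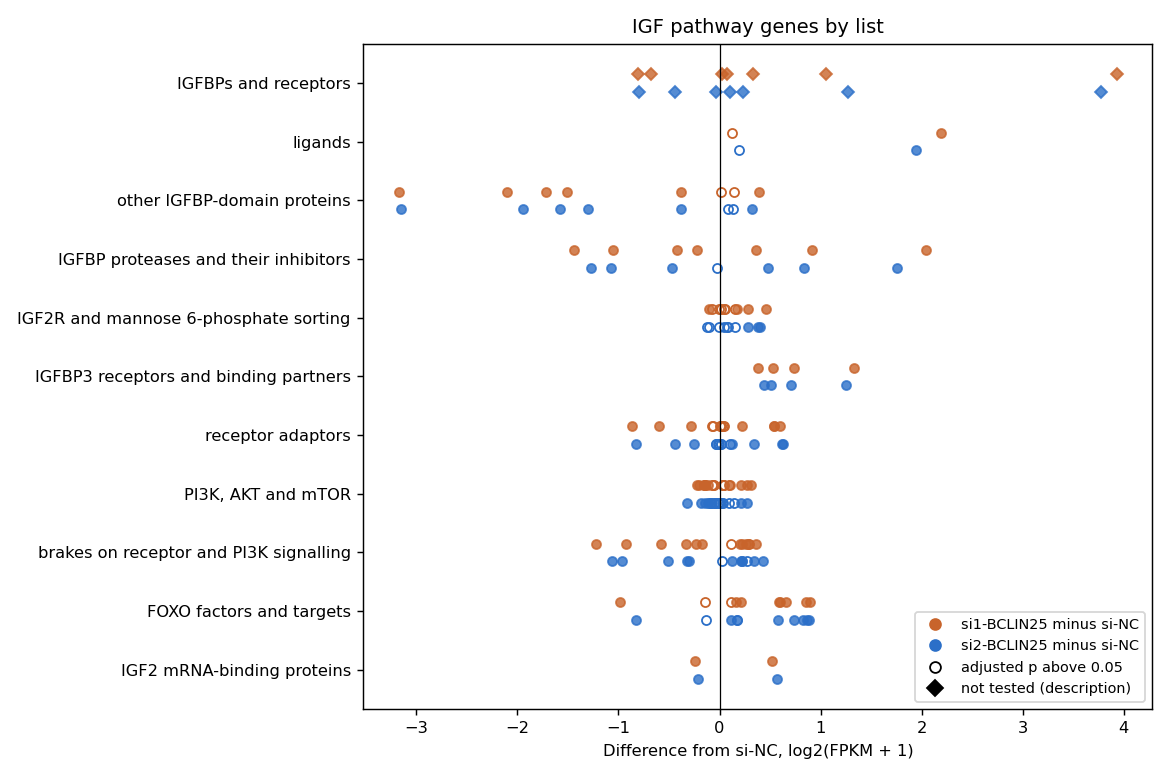
Log2(FPKM + 1) difference from si-NC (horizontal axis) of the 7 genes above the filter (diamonds, not tested) and of 89 tested pathway genes (circles) by list, for each siRNA. Filled circles have a limma adjusted p of at most 0.05. IGFBP3 and ESM1 lie at the opposite ends, at 3.93 and -3.17 for si1-BCLIN25.

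Of 14 tested adaptors of the receptors, 4 rose and 3 fell in each siRNA group. The share called was 50% in each, beside 63.1% and 63.0% of all genes. Of those that fell, GRB14 passed the filter only through the si-NC libraries. IRS2, a docking protein of IGF1R and INSR, fell from 11.9 ± 1.01 to 6.04 ± 0.29 and 6.22 ± 0.27 FPKM (log2 difference -0.87 and -0.83, SE 0.063, limma adjusted p = 1.36e-07 and 2.11e-07). Its relative IRS1 lay between 11.1 and 11.9 FPKM in all libraries, with overlapping groups. GRB14, an inhibitory adaptor of INSR, fell from 1.69 ± 0.29 to 0.77 ± 0.060 and 0.98 ± 0.015 FPKM (limma adjusted p with no filter = 0.000144 and 0.00101). SOS1, an activator of RAS, fell from 11.6 ± 0.37 to 9.34 ± 0.20 and 9.55 ± 0.51 FPKM. The adaptors GRB7, SH2B2 and SH2B1 rose, with log2 differences between 0.34 and 0.63 and limma adjusted p of at most 0.00147.

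In the list of PI3K, AKT and mTOR genes, 4 of 19 rose and 6 fell with si1-BCLIN25, and 2 rose and 5 fell with si2-BCLIN25. That made 52.6% and 36.8% called, beside 63.1% and 63.0% of all genes. AKT1, the kinase downstream of PI3K, fell from 87.7 ± 3.51 to 74.9 ± 0.64 and 70.0 ± 1.49 FPKM (log2 difference -0.23 and -0.32, SE 0.037, limma adjusted p = 0.000176 and 8.92e-06). PIK3R3, a regulatory subunit of PI3K, fell by 0.14 and 0.18 on the log2 scale, and PIK3CB, a catalytic subunit, rose by 0.21 and 0.27. TSC2, a brake on mTOR, rose by 0.31 and 0.21, and the latter was not called after quantile normalization (limma adjusted p = 0.171). The kinase GSK3B fell by 0.11 and 0.10 (limma adjusted p = 0.0239 and 0.0327). Its si1-BCLIN25 call was lost without si-NC replicate 1 (limma adjusted p = 0.067), si1-BCLIN25 replicate 2 (0.0813) or si1-BCLIN25 replicate 3 (0.0669), and with only the 2 groups in the fit (0.0543). Its si2-BCLIN25 call was lost without si-NC replicate 1 (0.0884) or 3 (0.060) and without si2-BCLIN25 replicate 1 (0.0732), 2 (0.0822) or 3 (0.0698).

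Of 13 tested brakes on the receptors and on PI3K, 5 rose and 6 fell with si1-BCLIN25, and 6 rose and 5 fell with si2-BCLIN25. The share called was 84.6% in each, beside 63.1% and 63.0% of all genes. In so short a list the count is given as a description. The ubiquitin ligase NEDD4 rose by 0.26 and 0.34 and the lipid phosphatase INPPL1 by 0.28 and 0.22. INPP4B, a lipid phosphatase of the pathway, fell from 26.8 ± 1.57 to 10.9 ± 0.48 and 12.3 ± 0.16 FPKM (log2 difference -1.23 and -1.06, SE 0.049, limma adjusted p = 5.04e-10 and 2.18e-09). The cytokine signalling suppressors SOCS3 and SOCS2 fell by 0.92 and 0.58 with si1-BCLIN25 and by 0.96 and 0.51 with si2-BCLIN25.

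Of 10 tested FOXO factors, which AKT is known to inactivate, and their known targets, 7 rose and 1 fell in each siRNA group. The share called was 80%, beside 63.1% and 63.0% of all genes. Of all 12317 genes, 4731 and 4756 were called higher. Among the 7 was PDK4, which passed the filter only through the siRNA libraries. In so short a list the count is given as a description. FOXO4 rose from 2.98 ± 0.24 to 6.41 ± 0.29 and 6.35 ± 0.42 FPKM (log2 difference 0.90 and 0.88, SE 0.064, limma adjusted p = 1.17e-07 and 1.38e-07). CITED2, a transcriptional co-regulator, rose from 13.7 ± 0.21 to 25.6 ± 1.01 and 25.8 ± 1.23 FPKM, and TXNIP, a brake on glucose uptake, rose from 58.1 ± 1.79 to 92.5 ± 3.06 and 104 ± 2.53 FPKM. The zinc finger factor KLF6 fell from 33.3 ± 0.40 to 16.3 ± 0.25 and 18.4 ± 0.23 FPKM (log2 difference -0.98 and -0.83, SE 0.036). The list's median log2 difference, with PDK4 included, was 0.40 and 0.38, beside 0.060 and 0.063 for all genes.

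Between the siRNA groups 1 of the 89 pathway genes was called, where 0.585% of all genes were, and 22 of the 89 had an unadjusted p under 0.05. That gene was ADAM9, a membrane protease. It averaged 55.5 ± 0.55 FPKM in si-NC, 47.5 ± 0.52 with si1-BCLIN25 and 54.6 ± 1.78 with si2-BCLIN25 (SD, n = 3 each). In log2 units si2-BCLIN25 was above si1-BCLIN25 by 0.20 (SE 0.035; limma adjusted p = 0.0348). The call was lost without si1-BCLIN25 replicate 1 (0.0524), 2 (0.128) or 3 (0.109) and without si2-BCLIN25 replicate 1 (0.0698), 2 (0.168) or 3 (0.145). Whether the 2 siRNAs act alike on the pathway is not shown by the small number of calls.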

How the data were processed

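Total RNA of the 9 libraries was sequenced on a BGI500 system, per the labels' protocols. The deposited table holds FPKM per gene, which scale fragments to transcript length and to the mapped total, so a few very abundant genes can shift all others. Per the submitters' processing notes, RSEM 1.2.12, HISAT2 2.0.4, DESeq2 1.4.5 and Bowtie2 2.2.5 were run, in roles that are not stated. The build is not given in the sources used here. In 1278 low rows, 20.5% of values were whole multiples of the lowest value in their row (tolerance 0.1). That lowest value can hold more than 1 read, so the check cannot show whether values step by single reads. Reads were not recovered and no counting interval is given.

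Symbols came from the RefSeq gene table of GRCh38.p14, which matched 17748 of 18064 rows. Replicates were compared before averaging, and no pair of libraries was identical. The 12317 genes that reached 1 FPKM in 3 or more libraries were tested. For log2(FPKM + 1), limma 3.58.1 (R 4.3.3) fitted group means over all 9 libraries, and eBayes used a trend. This scale understates differences of low genes. The same code was first tested on simulated data. SE of the 8 genes come from this fit. Promoter windows came from RefSeq, with an entry for 7 of the 8 genes.

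The 8 genes, the pathway lists and the markers were chosen with earlier results of these data known. Genes named were all ligands, IGFBP-domain proteins and IGF2 mRNA-binding proteins at 1 FPKM or more in a group, and, per other list, up to 3 that rose and 3 that fell in both siRNA groups, ranked by mean difference. The genes called between the siRNA groups were named too. Not every gene that this rule takes is reported here. CAV1, IRS1 and the low genes IGFBP1, IGFBP5, IGF1, INS and IGF2BP1 were named outside this rule, after their values were seen, as were neighbouring genes, PDK4 and single markers. Alternatives were a pseudocount of 0.1, no filter, a minimum of 5 FPKM, quantile normalization, median centring, no trend, only the 2 groups compared, a replicate block, and each library left out.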

Additional observations from a re-analysis of the deposited data

How the results depend on the processing

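Against si-NC, the count of pathway genes called stayed within 1.5 times the reported one under every alternative, and no call reversed. It lay between 51 and 62 for si1-BCLIN25 and between 46 and 58 for si2-BCLIN25. The number tested also changed, so these counts are not shares of the same set. With a minimum of 5 FPKM, 51 and 46 of 71 were called, and with no filter 60 and 58 of 105, beside 89 tested in the main fit. Between the siRNA groups the counts depended on the settings. All genes called went from 72 to 3 with no filter, 110.0 with a minimum of 5 FPKM, 13 without trend, 230.0 with only the 2 groups compared and 6 with the replicate block. Pathway genes called went from 1 to 0 with no filter, without trend and with the replicate block, and to 5 with only the 2 groups compared. With 1 library left out, all genes called ranged from 2 to 126: 126 without si-NC replicate 1, 5 without si1-BCLIN25 replicate 2, 5 without replicate 3 of that group, and 3, 8 and 2 without si2-BCLIN25 replicates 1, 2 and 3. Pathway genes called by limma ranged from 0 to 1 there, with 17 to 22 at an unadjusted p under 0.05, and it was 0 whenever 1 of the 6 siRNA libraries was left out. The ADAM9 call between the siRNAs was also lost with no filter (limma adjusted p = 0.0541), without trend (0.0935) and with the replicate block (0.0898). The cause of these changes was not tested.

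Same-numbered libraries were not treated as paired in the main fit. The correlation of their deviations from the group means ran from -0.164 to 0.139. For libraries with different numbers it ran from -0.193 to 0.218. With 3 libraries per group these values cannot show whether the replicates were paired. With the replicate block, 61 and 55 pathway genes were called against si-NC.

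The IGFBP3 differences were 3.97 and 3.82 with a pseudocount of 0.1 and 3.88 and 3.73 with median centring, and -0.10 between the siRNAs after quantile normalization. Those of IGFBP4 were -0.86 and -0.85 with median centring, and that of IGF2R in si2-BCLIN25 was -0.084. IGFBP2 had no fitted value, since it failed the filter. Read depth is unknown, so values under 1 FPKM carry no stated precision.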
